A study of Triticum aestivum with 8 samples.

Results

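Embryos of the bread wheat cultivar Norin61 (Triticum aestivum) were compared at 24 h and at 16 h of imbibition, the interval in which the radicle, the embryonic root, passed from a minimum of 3 mm to a minimum of 7 mm. The members were the 3 arrays titled 24 h and the 3 arrays titled 16 h, 6 of the 8 arrays of the series. The other 2 arrays, from dry seed, gave the starting level and added to the estimate of the spread. For imbibition, grains had been disinfected with hypochlorous acid, washed and kept on moist cotton in darkness at 25 °C. Grains whose radicle was below the minimum of their stage had been discarded, so each stage holds only grains that had reached its minimum. The 21 grains of a stage were divided into 3 pools, and the total RNA of the 7 embryos of a pool went to 1 single-colour Agilent array. The pools of a stage shared a cultivar and a treatment. Nothing in the labels says that they were sown separately, so the p-values measure the spread between pools only. The hours were taken from the titles and source names; the description fields of the same samples give 8 h and 16 h in place of 16 h and 24 h.

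Imbibition takes the dry embryo from rest to growth. Water uptake restarts respiration, transcription and protein synthesis from stored material, and germination in the strict sense ends when the radicle breaks through the covering layers. The growth that follows depends on loosening and rebuilding of the cell wall, on water uptake into the vacuole, on the return of cell division in the meristems and on reserves brought from the scutellum and endosperm. In wheat most genes are present in related copies on several subgenomes, and an array probe can take signal from more than one copy.

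The probes carry the names of expressed sequences, and none of the 40253 names matched an entry of the RefSeq gene table for the IWGSC CS RefSeq v2.1 assembly. Only 5 names were mnemonic. The 27 gene groups prepared for the comparison, among them expansins, histones, storage proteins and the markers of embryo, endosperm and aleurone, therefore had no member that could be identified, and the labelled tissue was not checked against markers. Probes are described below by their probe identifier and sequence name. In bulk RNA a change in the level per cell and a change in the share of a cell type cannot be told apart.

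Between 16 h and 24 h, 5682 of 30833 tested probes changed, which is 18.4%. Of these, 3593 (11.7% of tested probes) were higher and 2089 (6.78%) were lower at 24 h. Testing required a signal well above background on all arrays of 1 stage or more, and a probe was called changed at a limma adjusted p below 0.05 (Benjamini-Hochberg over all tested probes) and at least 2-fold. Levels are log2 signals relative to the array's 75th percentile, so they describe a transcript relative to the rest of the array. The median change over all tested probes was -0.01 on this scale, with quartiles of -0.44 and 0.50. Relative to the control RNA added to each sample (spike-ins), the median change was 0.60, and 92.5% of the calls were higher at 24 h, against 63.2% here. Most called probes separated the stages fully: all 3 pools at 24 h lay above all 3 at 16 h for 3548 of the 3593 rises, and below them for 2058 of the 2089 falls. Such separation was common in these arrays, with 62.9% of tested probes showing it in either direction.

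Rises outnumbered falls at each size examined. Among the 28094 tested probes that were well above background on all 6 arrays, 2650 rose and 1832 fell. The median change was 2.78-fold for the rises and 2.56-fold for the falls. A change of at least 4-fold was reached by 757 rises and 317 falls, one of at least 8-fold by 266 and 74, one of at least 16-fold by 86 and 24, and one of at least 32-fold by 27 and 5. No fall reached 64-fold, against 13 rises.

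**Figure D1:**
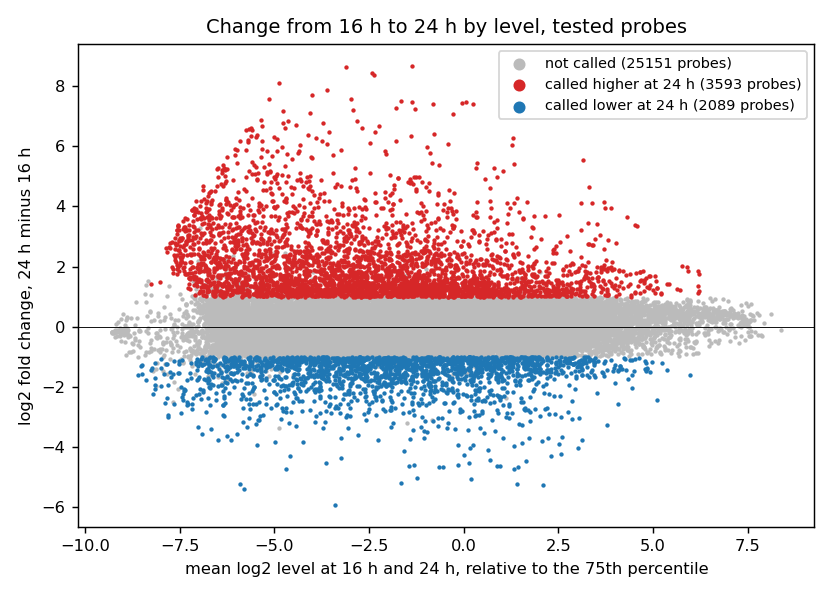
Log2 fold change from 16 h to 24 h (vertical axis) against the mean log2 level over the 16 h and 24 h arrays (horizontal axis), both relative to the 75th percentile of each array, for the 30833 tested probes. Each point is a probe; 3593 are called higher at 24 h and 2089 lower, and the points include 353 rises and 58 falls whose dimmer stage was not above background, so that their plotted distance from 0 is no measured fold.

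Rises were most frequent among dim probes and falls were spread evenly over levels. When the tested probes were ranked by their mean over all 8 arrays and divided into 5 bins of equal size, 21.2% of the dimmest bin rose, then 14.4%, 10.8% and 6.71% of the next bins, and 5.22% of the brightest. The share that fell was 6.45% in the dimmest bin, 5.48% in the brightest and between 7.10% and 7.57% in the others. Probes that pass the background filter only at 24 h are among the dim ones and had to be higher there, so part of this slope is set by the filter. The mean used for ranking also includes the dry-seed and 16 h arrays. It therefore moves rising probes towards the dim bins and falling probes towards the bright ones.

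The brightest part of the change can be followed as the share of all wheat signal on an array. The 3593 probes that rose held 3.80%, 2.59% and 2.67% of the signal in 16 h replicates 1, 2 and 3, and 9.37%, 7.69% and 9.39% in 24 h replicates 1, 2 and 3. The 2089 probes that fell held 4.01%, 6.60% and 6.30% at 16 h and 1.51%, 1.98% and 1.58% at 24 h. The stages did not overlap in either share, as the choice of the probes requires. Within each stage, however, 1 pool stood apart: 16 h replicate 1 lay on the 24 h side of the other 16 h pools in both shares, and 24 h replicate 2 lay on the 16 h side of the other 24 h pools.

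The dry seed gives these probes their starting level. In the 2 dry-seed arrays the rising probes held 2.49% and 2.52% of the signal, close to the shares in 16 h replicates 2 and 3, while the falling probes held 22.2% and 21.8%. Of the 2650 rises measured on all 6 arrays, 30.3% were above background on neither dry-seed array, against 11.3% of all 28094 probes so measured and 9.01% of the 1832 falls. The dry-seed arrays detected less, with 26165 and 25322 probes above background against 28889 or more on the imbibed arrays. The median level of the measured rises moved from -3.27 in dry seed through -2.48 to -0.62. That of the measured falls went from -0.12 through -0.44 to -2.08.

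The largest rises measured on all 6 arrays belonged to probes that were dim at 16 h and bright at 24 h. Probes of the sequence X85228 took 3 of the first 4 places. Probe A_99_P486982 stood at -0.65, -5.25 and -5.06 in 16 h replicates 1, 2 and 3 and at 4.08, 3.40 and 3.91 in the 24 h replicates. The 24 h pools were close together, and at 16 h replicate 1 was far above the others. The log2 fold change was 7.45 (SE 1.18, n = 3 per stage, limma adjusted p = 0.00237), a 175-fold rise. It was 8.96 without 16 h replicate 1, 6.65 without replicate 2 and 6.75 without replicate 3, so its size depended on the pools included. Probes A_99_P509832 (7.43, limma adjusted p = 0.00264) and A_99_P426532 (7.41, limma adjusted p = 0.00221) of the same sequence gave the same picture. At 16 h A_99_P509832 stood at -0.71, -5.27 and -5.26, and A_99_P426532 at -0.52, -5.08 and -4.80. All 8 tested probes of X85228 rose. Of the other 5, A_99_P422532 and A_99_P225401 were above background in 2 of the 3 pools at 16 h and A_99_P166984 in 1, so their log2 differences of 7.50, 7.25 and 7.27 rest partly on background signal. A_99_P419137 and A_99_P225531 were measured on all 6 arrays and rose by 3.71 and 2.05. This pair already had mean 16 h levels of -1.60 and -0.46, above the other probes of the sequence, so probes of 1 name differed in how much signal they gave before the rise.

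Other large rises had less spread at 16 h. Probe A_99_P617907 (sequence CK210989) stood at -3.16, -4.49 and -3.80 in the 16 h replicates and at 3.48, 2.98 and 3.30 in the 24 h replicates, and it was above background on neither dry-seed array. Its log2 fold change of 7.07 had an SE of 0.31 (limma adjusted p = 7.76e-05), the smallest p of the 12 largest rises. Probe A_99_P559372 (TA81144_4565) stood at -5.44, -6.17 and -6.35 at 16 h, near its dry-seed levels of -5.62 and -5.51, and at 1.10, 0.00 and 0.71 at 24 h, a 96.1-fold rise (SE 0.32 on the log2 scale, limma adjusted p = 0.000104). These stages are far apart beside the spread of their pools. A second probe of TA81144_4565, A_99_P298181, rose as well (limma adjusted p = 0.000377), but it was above background in only 2 of the 3 pools at 16 h.

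Probe A_99_P226811 (TA60579_4565) was the brightest of the largest rises at 24 h. It stood at -0.41, -2.68 and -2.41 in the 16 h replicates and at 4.68, 4.10 and 4.55 in the 24 h replicates, a 77.7-fold rise (limma adjusted p = 0.000513). Probe A_99_P422467 (CK209240) was the only one of the 12 that was above background in dry seed, at -4.29 and -3.92. It stood at -2.67, -5.82 and -5.05 at 16 h and at 3.47, 1.55 and 3.68 at 24 h, so both stages had a pool leaning towards the other. Probes A_99_P239856 (TA64398_4565, 102-fold), A_99_P192287 (CJ505363, 85.1-fold), A_99_P255621 (CJ798293, 80.6-fold) and A_99_P267731 (X85230, 72.1-fold) completed the upper part of the list. The other 2 tested probes of CJ798293, A_99_P157897 and A_99_P255631, rose by 5.44 and 5.19 on the log2 scale. Of the other 3 tested probes of X85230, A_99_P167839 and A_99_P594807 rose by 3.94 and 4.74, and A_99_P585877, not well above background in any 16 h pool, was at least 6.82-fold higher at 24 h. Without 16 h replicate 1 the log2 fold change was 8.34 for A_99_P422467, 7.33 for A_99_P239856, 7.18 for A_99_P192287, 7.05 for A_99_P255621 and 6.99 for A_99_P226811. For A_99_P422467 it was also 6.76 without 16 h replicate 2 and 8.09 without 24 h replicate 2.

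The largest falls went from bright to dim and were smaller than the largest rises. Probe A_99_P208251 (TA53534_4565) stood at 4.12, 5.16 and 4.88 in 16 h replicates 1, 2 and 3 and at -2.06, 1.48 and -1.01 in the 24 h replicates. The stages did not overlap, and 24 h replicate 2 was the least reduced. The log2 fold change was -5.25 (SE 0.80, limma adjusted p = 0.00210), a 38.1-fold fall. Probe A_99_P207586 (TA53325_4565) followed the same course, from 3.36, 4.51 and 4.15 to -2.82, 0.71 and -1.49 (log2 fold change -5.21, limma adjusted p = 0.00209). In dry seed these probes stood at 2.22 and 2.17, and at 1.20 and 1.00, so both were at their highest measured level at 16 h.

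Probes A_99_P207211 (TA53217_4565) and A_99_P207216 (TA53218_4565) have sequence names of consecutive number. The former stood at 0.45, 1.91 and 1.54 at 16 h and at -4.43, -2.64 and -4.13 in the 24 h pools (-5.03 on the log2 scale, SE 0.52, limma adjusted p = 0.000626). The latter stood at 2.03, 3.34 and 2.78 and then at -3.66, -0.69 and -2.62 (-5.04, limma adjusted p = 0.00148). The order of the pools was the same in both.

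Probe A_99_P064335 (AL818224) differed from the other large falls in being highest in dry seed, but only on the 75th-percentile scale. Its dry-seed levels were 5.98 and 6.15, its 16 h levels 2.89, 4.15 and 4.03, and its 24 h levels -1.85, 0.18 and -1.41. Over the last interval it fell 26.3-fold (log2 fold change -4.72, limma adjusted p = 0.000860). The log2 percentile itself rose against the spike-ins, from 7.60 and 7.41 in dry seed to 10.56, 10.30 and 10.31 at 16 h. Scaled to the spike-ins, the mean level of this probe was therefore higher at 16 h than in dry seed. Probes A_99_P457357 (BE413946, 36.7-fold), A_99_P307521 (TA83909_4565, 25.5-fold) and A_99_P362961 (TA101032_4565, 25.4-fold) fell with a wide spread at 24 h (SD 2.01, 2.22 and 2.18, n = 3). The size of the falls depended on the 24 h pools included. Without 24 h replicate 2 the log2 fold change was -6.26 for A_99_P208251, -6.16 for A_99_P207586, -5.86 for A_99_P207216, -5.32 for A_99_P064335, -6.30 for A_99_P457357, -5.95 for A_99_P307521 and -5.87 for A_99_P362961. Without 24 h replicate 1 it was -4.49 for A_99_P208251, -4.40 for A_99_P207586, -4.38 for A_99_P207216, -4.32 for A_99_P457357, -3.99 for A_99_P307521 and -3.74 for A_99_P362961, and without replicate 3 it was -4.07 for A_99_P307521. On the 75th-percentile scale, 11 of the 12 largest falls had a higher mean level at 16 h than in dry seed, against 897 of all 1832 measured falls. Over all 28094 probes measured on all 6 arrays it was 14344. The 12 were chosen for a 16 h level far above that at 24 h, which favours this order, so nothing is read from the contrast.

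The order of the pools within a stage recurred from probe to probe. In all 12 of the largest rises, 16 h replicate 1 was the highest of the 16 h pools and 24 h replicate 2 the lowest of the 24 h pools. In all 12 of the largest falls, 16 h replicate 1 was the lowest 16 h pool and 24 h replicate 2 the highest 24 h pool. The probes were chosen on the difference of the stage means, which does not fix the order of the pools.

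**Figure D2:**
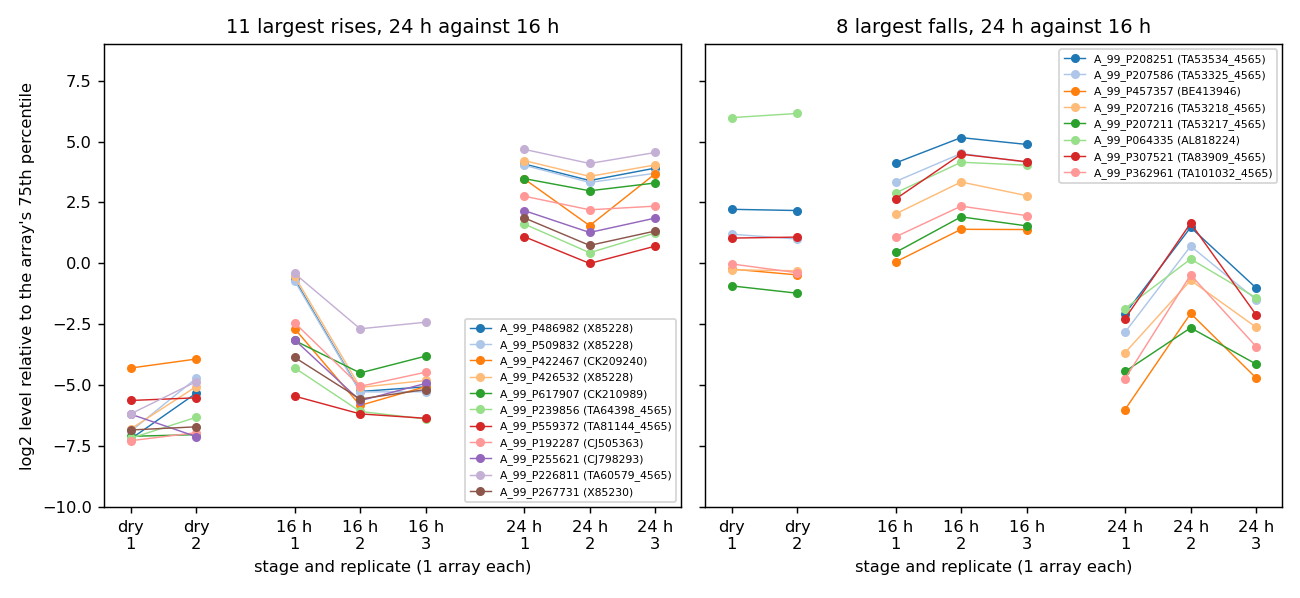
Log2 level relative to the array's 75th percentile (vertical axis) on each of the 8 arrays (horizontal axis) for the 11 largest rises (left) and the 8 largest falls (right) from 16 h to 24 h among probes measured on all 6 arrays; each line joins the arrays of 1 stage for 1 probe. In every rise shown 16 h replicate 1 is the highest 16 h array, and in every fall shown 24 h replicate 2 is the highest 24 h array.

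Some transcripts crossed the detection limit. For 353 called probes the signal was well above background in all 3 pools at 24 h and in no pool at 16 h. Of these, 337 were above background on neither dry-seed array, against 15.7% of all tested probes. The choice of probes undetected at 16 h favours absence from dry seed, so nothing is read from this contrast. For such probes the change is given as a lower bound on the scale of the processed signal. It sets the mean of the brighter stage against the lowest signal well above background on each array of the dimmer stage, or against the probe's own signal where that was higher. The bound was at least 2-fold for 239 and at least 8-fold for 52 of the 353. The largest was that of A_99_P351256 (CA653649), which was not well above background on any 16 h array (measured mean -8.92) and stood at -0.70, -1.52 and -0.25 at 24 h, at least 68.1-fold higher (limma adjusted p = 7.13e-05). A_99_P479512 (TA83695_4565) stood at 0.05, -3.73 and 0.08 at 24 h against a measured mean of -8.36 at 16 h, at least 52.4-fold higher (limma adjusted p = 0.00127). Its level in 24 h replicate 2 was far below that of the other 24 h pools.

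In the other direction, 58 called probes were above background on all 16 h arrays and on none at 24 h. The bound was at least 2-fold for 43 of them and at least 8-fold for 2, namely A_99_P258756 (TA69642_4565) and A_99_P013709 (CD903155). A_99_P258756 stood at -0.91 and -1.10 in dry seed and at -3.48, -2.74 and -3.08 at 16 h, and was at least 16.0-fold lower at 24 h, where its measured mean was -8.48 (limma adjusted p = 0.000259). A_99_P013709 stood at -3.60, -3.29 and -3.0 at 16 h and was at least 14-fold lower at 24 h, with a measured mean of -8.50 (limma adjusted p = 0.000220). With normexp the log2 changes were -1.79 for A_99_P258756 and -1.74 for A_99_P013709, again smaller than the bounds. Of the 58, 26 were above background on both dry-seed arrays and 26 on neither. Over all tested probes the shares were 80.2% and 15.7%. The choice of probes undetected at 24 h favours dim probes, so nothing is read from this difference.

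None of the 5 mnemonic probes passed the call. The files pair them with no description, so no role is given here. TANAD4MR (A_99_P405782) was the brightest, at 5.71, 5.92 and 5.75 in the 16 h pools and 4.99, 5.0 and 5.08 in the 24 h pools. The stages did not overlap and the log2 change was -0.77 (SE 0.11, limma adjusted p = 0.00158), below the 2-fold minimum. MTTANADH2 (A_99_P406497) stood at -0.29, -0.72 and -0.43 and then at -1.53, -1.22 and -1.31, a change of -0.87 (limma adjusted p = 0.00265), also below 2-fold. Relative to the spike-ins these changes were -0.16 and -0.26.

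TAHSP173 (A_99_P405772) stood at 3.05, 1.72 and 1.61 in 16 h replicates 1, 2 and 3 and at 1.62, 1.51 and 1.42 at 24 h. Replicate 1 thus lay nearer to the dry-seed levels of 7.40 and 7.02 than the other 16 h pools did, the opposite side from its place in the largest changes. The difference between stages was -0.61 (SE 0.36, limma adjusted p = 0.190), and relative to the spike-ins it was 0.00. TATHAUMLP (A_99_P440452) was also highest in 16 h replicate 1, with -0.84, -1.72 and -1.57, and stood at -1.30, -1.74 and -1.50 at 24 h (log2 difference -0.14, limma adjusted p = 0.669). Its difference was 0.13 without 16 h replicate 1 and 0.47 relative to the spike-ins. TAHSPLW (A_99_P405777), at 0.26 and -0.34 in dry seed, was not well above background on any of the 6 arrays.

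The progress of each pool was measured on an axis that uses no 16 h array. On it the mean of dry seed is 0 and the mean of the 24 h pools is 1, and a pool is placed by projecting its levels over the 30811 tested probes with a value on all arrays. Replicate 1 of the 16 h stage stood at 0.838, replicate 2 at 0.741 and replicate 3 at 0.741. Replicate 1 was thus ahead, and the others stood together. The 24 h pools, each placed on an axis built without it, stood at 0.995, 0.978 and 1.00. The spread of the 16 h positions (0.773 ± 0.056, SD, n = 3) was wider than that of the 24 h positions (0.992 ± 0.013, SD, n = 3). With 1 array per pool there is no test of a single pool.

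The lead of 16 h replicate 1 appeared in rising and in falling transcripts. Over the 9033 probes called higher at 24 h than in dry seed in a fit without any 16 h array (29.3% of tested probes were so called), the 16 h replicates stood at 0.809, 0.673 and 0.697. Over the 8291 called lower (26.9%), they stood at 0.873, 0.822 and 0.794. Replicate 2 was behind replicate 3 in the probes called higher and ahead of it in those called lower. On this scale the probes called lower were thus further along than those called higher in each 16 h pool. Relative to the spike-ins, the log2 75th percentile was 7.60 and 7.41 in dry seed and 10.69, 11.27 and 11.04 at 24 h. Which probes count as higher or lower than dry seed therefore depends on the scaling, and these 2 positions were not computed relative to the spike-ins. Replicate 1 was the highest 16 h pool for 60.8% of the probes called higher and the lowest for 55.2% of those called lower. Among the 13487 probes called in neither direction it was the highest for 41.9% and the lowest for 34.9%.

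The positions were also computed within slides. The 16 h replicates 1 and 2 were hybridised on slide 1 and replicate 3 on slide 2. Built from the dry-seed and 24 h arrays of slide 1 alone, the axis placed the 16 h replicates at 0.819, 0.722 and 0.722, and built from slide 2 alone at 0.844, 0.750 and 0.750. Replicate 1 had 31232 probes above background, replicate 2 had 28889 and replicate 3 had 31106, so the pools that stood together on the axis differed in detection. The faintest signal that counted as well above background was 9.94, 16.8 and 9.09 linear units in the same order. RNA quality per pool is not given in the sources used here, and its part in the order was not tested.

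**Figure D3:**
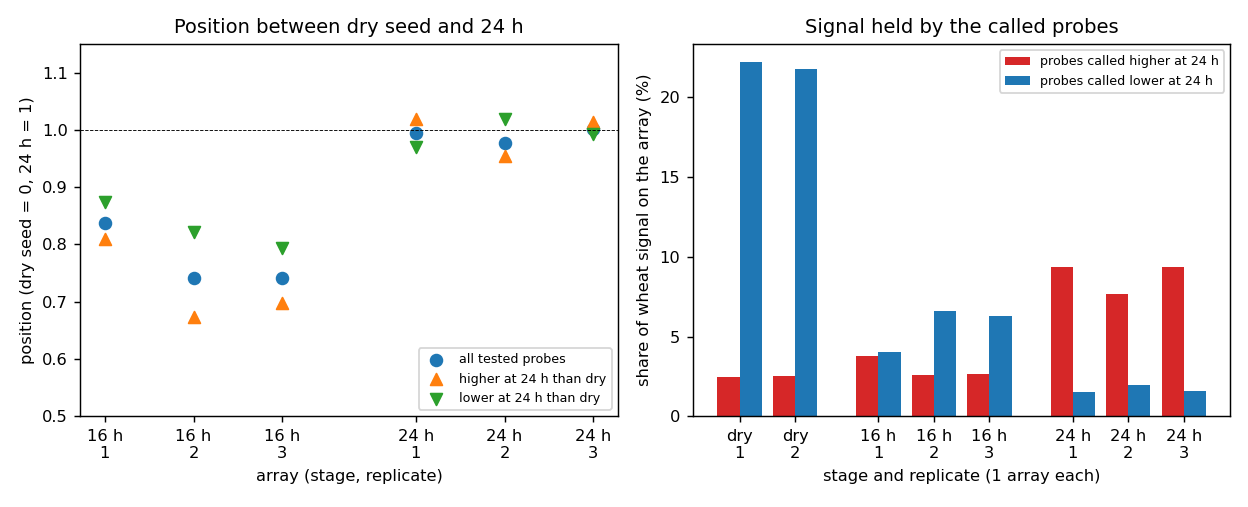
Left, position of each 16 h and 24 h array (horizontal axis) on the axis from dry seed (0) to 24 h (1), over all tested probes (circles) and over the probes higher (up triangles) or lower (down triangles) at 24 h than in dry seed; the vertical axis starts at 0.5. Right, percent of the wheat signal of each array held by the probes called higher or lower from 16 h to 24 h; 16 h replicate 1 is ahead on the left (0.838 against 0.741 and 0.741) and nearest to the 24 h shares on the right.

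The step from 16 h to 24 h itself gave another measure of these differences. For each pool in turn, the changed probes were called without it, and its levels were then set on a scale where the remaining 16 h pools are 0 and the remaining 24 h pools are 1. The probes were chosen for a difference between the remaining pools, so each pool is read against a different reference. The remaining pools of its stage serve both in the choice and in the scale, which favours a place towards the other stage. Over the 4155 probes called higher without 16 h replicate 1, that pool had a median of 0.352 (quartiles 0.196 and 0.503), and over the 2600 called lower, of which 2598 had a value on all arrays, a median of 0.339 (quartiles 0.220 and 0.461). It lay beyond both other 16 h pools on the 24 h side for 83.7% of the former and 91.0% of the latter. The background of these calls was 13.5% and 8.43% of tested probes. Placed in the same way, replicate 2 lay beyond both others on that side for 10.9% of its rises and 11.1% of its falls. For replicate 3 the shares were 16.4% and 7.83%.

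The fraction varied between probes about as widely in 16 h replicate 1 as in the other 16 h pools. For the rises its quartiles were 0.196 and 0.503 in replicate 1, -0.358 and -0.053 in replicate 2, and -0.252 and 0.036 in replicate 3. Whether transcripts differed in their advance was not tested. Replicate 1 was past the midpoint for 1061 of the 4155 rises (25.5%) and for 484 of the 2598 falls (18.6%). Placed in the same way, 16 h replicate 2 had medians of -0.197 and -0.147 and was past the midpoint for 1.25% of the rises and 2.30% of the falls. Replicate 3 had medians of -0.110 and -0.139, with 2.91% and 0.749% past the midpoint. Of the tested probes, 10.1% and 5.93% were called higher and lower without replicate 2, and 10.6% and 5.63% without replicate 3. The negative medians are read against a reference that contains replicate 1.

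On the scale from 16 h to 24 h, replicate 2 was the 24 h pool nearest to the 16 h stage. It had a median of 0.815 over the 3842 probes called higher without it and of 0.814 over the 2274 called lower, and it lay beyond both other 24 h pools on the 16 h side for 78.1% and 68.8% of them. Those calls were 12.5% and 7.38% of tested probes. Replicate 1 had medians of 1.09 and 1.02, with 10.5% and 6.44% of tested probes called, and replicate 3 of 1.06 and 1.04, with 10.7% and 6.35% called. The series' own table exchanges 24 h replicates 2 and 3 relative to the scanner files, and the replicate numbers here are those of the scanner files.

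**Figure D4:**
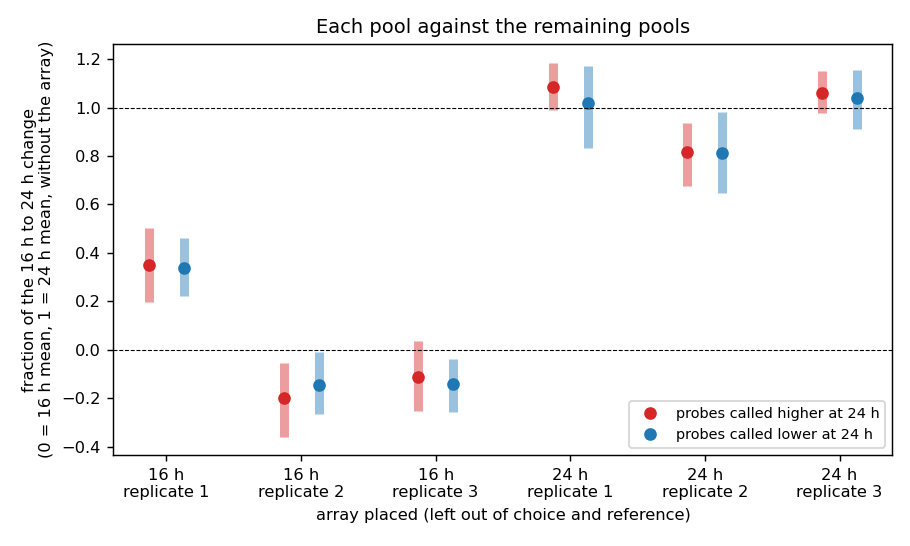
Fraction of the change from 16 h to 24 h reached by each pool (vertical axis; 0 is the mean of the 16 h pools and 1 that of the 24 h pools, both without the pool placed), for probes called higher or lower without it. Points are medians over probes and bars run from the lower to the upper quartile; 16 h replicate 1 lies near 0.35 and 24 h replicate 2 near 0.81, and the other pools lie outside the interval from 0 to 1.

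The probes that set each pool apart from its own stage were then counted. Of the 28074 probes measured on all 6 arrays and with a value on all 8, 572 were at least 2-fold higher in 16 h replicate 1 than in both other 16 h pools, and 200 were at least 2-fold lower. For 16 h replicates 2 and 3 the counts were 37 and 52 higher and 24 and 9 lower. Of the 572, 481 were called higher at 24 h than in dry seed in the fit without 16 h arrays, 36 were called lower and 55 were not called. Of the 200, 80 were called lower, 57 higher and 63 were not called. Over all tested probes the shares were 29.3% higher and 26.9% lower, so the 572 held mostly probes that rise from dry seed, while the 200 were divided. In the fit of 24 h against 16 h without replicate 1, 499 of the 572 were called higher and 168 of the 200 lower, against 13.5% and 8.43% of all tested probes. That fit shares the other 16 h pools with the choice of the probes, which favours these calls, so nothing is read from the counts.

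In 24 h replicate 2, 392 probes were at least 2-fold below both other 24 h pools and 172 at least 2-fold above them. The counts were 18 and 66 for replicate 1 and 23 and 35 for replicate 3. Between dry seed and 24 h, 201 of the 392 were called higher, 86 lower and 105 not, and 45 of the 172 were called higher, 44 lower and 83 not. The 172 thus had no common direction from dry seed. In the fit of 24 h against 16 h without replicate 2, 236 of the 392 were called higher and 125 of the 172 lower, against 12.5% and 7.38% of all tested probes. The other 24 h pools serve both in the choice of the probes and in these fits, which favours the calls, so nothing is read from these counts either. Across the 30811 probes, the deviation of 16 h replicate 1 from the other 16 h pools correlated with the difference between 24 h and dry seed at r = 0.42, against -0.28 for replicate 2 and -0.30 for replicate 3. The deviation of 24 h replicate 2 correlated with that of 16 h replicate 1 at r = -0.16. The deviations of the 16 h pools cancel out in each probe, so a positive value for 1 pool requires a negative one elsewhere. The negative values of replicates 2 and 3 therefore add nothing to that of replicate 1. No array enters both sides of these correlations, and probes are not independent replicates.

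Among called probes measured on all 16 h and 24 h arrays, those that differed most among the 16 h pools all rose. A probe with a wide spread passes the call only with a large change, and large changes were mostly rises. Nothing is therefore read from this direction. Besides the 3 probes of X85228 already described, A_99_P105185 (AB124849) stood at 1.03, -3.44 and -3.11 in 16 h replicates 1, 2 and 3 and at 3.69, 3.15 and 3.46 at 24 h, a rise of 5.27 on the log2 scale (SE 1.06, limma adjusted p = 0.00558). Replicate 1 lay closer to the 24 h pools than to the other 16 h pools. A_99_P407442 (TC369525) stood at -1.03, -5.59 and -4.43 and then at 1.54, 1.04 and 1.34 (4.99, limma adjusted p = 0.00574). A_99_P143888 (CJ829799) stood at -1.60, -5.65 and -5.39 and then at 1.00, 0.57 and 0.60 (4.94, limma adjusted p = 0.00498). Without replicate 1 these changes were 6.71, 6.31 and 6.25; without replicate 2 they were 4.47, 4.03 and 4.22, and without replicate 3 the first and last were 4.64 and 4.35. All 3 were above background on neither dry-seed array, and replicate 1 was the outlying pool in each.

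Among called probes measured on all 16 h and 24 h arrays, those that differed most among the 24 h pools were falls. A_99_P063217 (CK195446) stood at -1.23, 0.17 and -0.06 at 16 h and at -5.11, -1.06 and -6.27 in the 24 h pools (-3.77 on the log2 scale, SE 1.20, limma adjusted p = 0.0319). A_99_P261321 (TA70360_4565) stood at 0.60, 1.18 and 1.04 and then at -3.87, 0.85 and -3.24 (-3.03, SE 1.09, limma adjusted p = 0.0496). The 24 h replicate 2 of the latter lay within the 16 h range. Both calls were lost when certain arrays were left out: without 24 h replicate 3 the adjusted p was 0.0905 for A_99_P063217 and 0.147 for A_99_P261321. Without 24 h replicate 1 it was 0.0987 and 0.147, without 16 h replicate 2 it was 0.0906 and 0.118, and without 16 h replicate 3 it was 0.0877 and 0.115. Without 16 h replicate 1 the call of A_99_P261321 was also lost (limma adjusted p = 0.0803). Without 24 h replicate 2 both were larger, at -5.32 and -4.50 on the log2 scale. A_99_P063217 was at -2.71 without 24 h replicate 3, and A_99_P261321 at -2.14 without 24 h replicate 1. With no filter on dim probes both calls were lost (limma adjusted p = 0.0576 and 0.0852). That of A_99_P261321 was also lost with quantile normalization (limma adjusted p = 0.0538), with scaling to the probes above background everywhere (0.0539), with the 6 arrays alone (0.0686) and with a trended robust prior (0.0542).

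Within each slide the change had the same direction. All 3593 rises and all 2089 falls kept their sign on slide 1 (24 h replicate 1 against 16 h replicates 1 and 2) and on slide 2 (24 h replicates 2 and 3 against 16 h replicate 3). At least 2-fold on both slides were 3167 of the rises and 1677 of the falls. The median change of the rises was 1.76 on slide 1 and 1.75 on slide 2, and that of the falls -1.34 and -1.55. The probes were called on the same arrays, so these values describe the calls and do not test them.

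**Figure D5:**
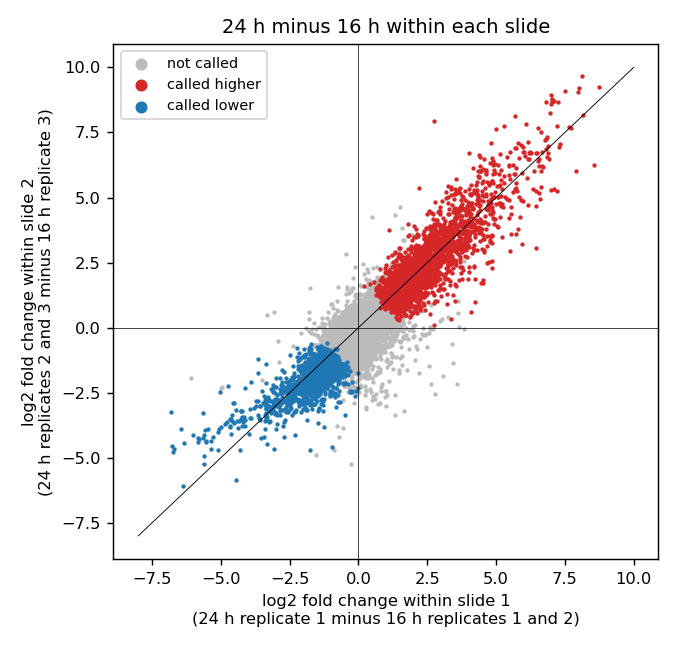
Log2 fold change from 16 h to 24 h within slide 1 (horizontal axis) and within slide 2 (vertical axis) for the tested probes, coloured by call; the diagonal marks equal change. All 3593 probes called higher are positive on both axes and all 2089 called lower are negative on both.

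Values of the arrays as a whole were compared last. The number of probes above background averaged 30409 ± 1318 at 16 h and 31343 ± 681 at 24 h (SD, n = 3 each), and the pools overlapped (exact two-sided permutation test, p = 0.4). The log2 75th percentile before scaling overlapped as well, at 10.43 ± 0.20 (SD, n = 3) and 10.62 ± 0.18 (exact two-sided permutation test, p = 0.3). Relative to the spike-ins the log2 75th percentile was 10.56, 10.30 and 10.31 in the 16 h pools and 10.69, 11.27 and 11.04 in the 24 h pools, which do not overlap (exact two-sided permutation test, p = 0.1). The share of signal held by the 100 brightest probes of each array was 15.4% ± 0.49 and 15.7% ± 0.48 (SD, n = 3; exact two-sided permutation test, p = 0.6). With 3 against 3 pools the smallest p is 0.1, so none of these tests could pass 0.05.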

How the data were processed

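Scanner files of 8 single-colour arrays were used. Per the file headers, the spots were read with Agilent's Feature Extraction software, version 10.7.3.1; the deposited processed intensity is background-subtracted and linear. The deposited series table holds log2 values, which equalled the log2 processed signal less the 75th percentile of the array, with the median of every probe subtracted (median absolute difference at most 0.0035); its columns for 24 h replicates 2 and 3 matched each other's scanner file.

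Here log2 processed intensity was scaled to the 75th percentile of non-control probes. Outlier-flagged spots (3 to 15 per array) were left out and spots of a probe averaged. No non-control spot was saturated. A probe was above background where 50% or more of its spots carried the scanner's flag for this, and needed 2 unflagged arrays per stage. limma 3.58.1 (R 4.3.3; lmFit, eBayes) was fitted to all 8 arrays with a mean per stage, and the fit was tested on simulated data. Spike-in scaling used 8 control probes.

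Levels were ranked over all 8 arrays for the bins. The probes named are those with the largest measured changes, the largest bounds and the largest spread within a stage among called probes, other probes of the same sequences, and the mnemonic names. The stages, rules and lists were chosen with earlier results of these data known. The number of arrays limits the precision. Probe sequences were not used here.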

Additional observations from a re-analysis of the deposited data

How the results depend on the processing

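None of the 5682 called probes was called in the opposite direction in any of 22 alternative settings, and between 3292 and 5682 of those calls were made again in the same direction. Counts of calls depended on scale and thresholds. Relative to the spike-ins 8989 probes were higher and 727 lower; with normexp background correction (offset 50) 2174 and 1338; restricting the test to probes above background on each of the 8 arrays, 1692 were higher and 1618 lower; with no minimum fold 8201 and 7820. The share of calls that were higher was 63.2% in the main setting, 51.1% under that restriction, 53.3% with median scaling and 51.2% with no minimum fold. Leaving out single arrays gave 3116 to 4155 higher and 1737 to 2600 lower, most without 16 h replicate 1. The replicate numbers shared by the stages did not pair the pools (correlations of deviations 0.12, 0.09 and -0.04), and with the replicate number as a block 3575 probes were higher and 2073 lower.

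The 16 h replicate 1 led on the axis from dry seed to 24 h in all 13 settings. Positions of replicates 2 and 3 were 0.809 and 0.773 with normexp, and 0.798 and 0.792 under the same restriction. Over the probes called between 16 h and 24 h without the pool placed, replicates 1, 2 and 3 stood at 0.714, 0.525 and 0.544. Leaving out single dry-seed or 24 h arrays, an alternative chosen after seeing the data, gave 0.822 to 0.843 for replicate 1, 0.724 to 0.747 for replicate 2 and 0.724 to 0.746 for replicate 3. Among the named probes, the uncalled difference of TAHSP173 (A_99_P405772) was 0.00081 relative to the spike-ins, and that of TATHAUMLP (A_99_P440452) was 0.47 relative to the spike-ins and 0.13 without 16 h replicate 1 (-0.31 to 0.13 over the arrays left out), each of opposite sign to the main setting. TANAD4MR (A_99_P405782) passed the call with quantile normalization (-1.03). TAHSPLW (A_99_P405777), not above background in any imbibed pool, passed with median scaling, without 16 h replicate 2 and without 24 h replicate 1 (limma adjusted p = 0.0126, 0.0206 and 0.0412). With no minimum fold both passed, as did MTTANADH2 (A_99_P406497). The cause of these changes was not tested. The difference between stages in probes above background was 174 to 1346 when single arrays were left out, also chosen after seeing the data. Counts per gene list were not run, because no list had an identified member.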

Other observations

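Where at least 2 probes of a sequence were called, they had 1 direction almost throughout. A called probe beside an uncalled one of the same name does not count as a difference here. Of 2192 sequence names with several tested probes, 355 had at least 2 called between 16 h and 24 h. In 354 of them all called probes had the same direction, and in 248 that direction was a rise. The exception was TA59082_4565, named here because it was the only one, after its values were seen. Probes of 1 name share a target sequence and are not independent.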
